A study of Mus musculus with 42 samples.

Results

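The expression of 12988 genes was compared between embryos whose fathers had received the high dose of di(2-ethylhexyl) phthalate (DEHP, a phthalate that softens plastics) and embryos of control fathers. All rows of the expression table with a mouse Ensembl gene identifier were taken, 12988 of 12991. The other 3 rows count reads that did not align uniquely, fell outside genes or were ambiguous between genes. C57BL/6J males were 8 weeks old at the start and received vehicle, 2.5 (low) or 25 (high) mg/kg/day of DEHP for 67 days, after which they were mated with females that had received none. The offspring are described as wild type, of the cross C57BL/6 * DBA/2J, male, and taken at embryonic day 7.5. Total RNA of embryonic and extra-embryonic tissue was sequenced. The labels list 42 samples, of which 12 are RNA samples: 2 embryonic and 2 extra-embryonic samples per treatment. The table holds 6 columns, 2 per treatment, named by treatment and a number but not by tissue, so the tissue of each column is not known and each group is given as 2 libraries. The 4 columns compared are called control 1, control 2, high 1 and high 2, and the 2 low-dose columns are set beside them. The labels do not say whether the 2 libraries of a group came from different litters or fathers, so the tests measure only the spread between these libraries.

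At this age the mouse embryo is gastrulating. Epiblast cells pass through the primitive streak under Nodal, Wnt and FGF signals and become mesoderm and definitive endoderm. Retinoic acid, made from vitamin A by Aldh1a2 and destroyed by the Cyp26 enzymes, and the Cdx factors then take part in switching on the Hox genes in the posterior of the embryo. Outside the embryo proper, the visceral endoderm secretes apolipoproteins and takes up nutrients, and the trophoblast forms the placenta. Metabolites of DEHP are known as ligands of the peroxisome proliferator-activated receptors (PPARs) in rodent liver.

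Genes of the embryo proper and of the yolk sac endoderm were both abundant in all 6 libraries. Values are CPM (counts per 1000000 reads). Pou5f1, a pluripotency factor of the epiblast, had 415 and 498 CPM in the control libraries and 415 and 356 in the high libraries, and T, the factor of the streak, had 276 and 226 CPM in the control libraries and 255 and 204 in the high libraries. Apob, the apolipoprotein that the visceral endoderm secretes, had 1021 and 441 CPM in the control libraries and 661 and 928 in the high libraries. Genes of both kinds were thus measured in each of these 4 libraries, but they do not tell which dissected tissue a column holds. Markers specific to trophoblast giant cells and their precursors were low or not among the genes listed, whereas 20 of 29 genes of a wider trophoblast and extraembryonic ectoderm list were measured. Prl3d1, the hormone of trophoblast giant cells, had 9.72 and 0.754 CPM in the control libraries and 0.364 and 2.37 in the high libraries, and Elf5 and Tpbpa were not listed. Of 20 immune and adult blood genes only Hba-a1, Hbb-bs and Cd68 were measured, at summed levels of 6.54 to 9.57 CPM in the 4 libraries. Xist, which is transcribed from the inactive X chromosome of female cells, had 712 and 526 CPM in the control libraries and 442 and 742 in the high libraries. The Y-linked Kdm5d had 7.77 and 17.7 CPM in the control libraries and 12.7 and 4.63 in the high libraries. Both kinds of transcript were present in every library, whereas the labels give the sex as male. High 2 had the highest Xist and the lowest Kdm5d of the 4 libraries, and the part of this in the results below was not tested.

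Few genes separated the groups beyond the spread of the libraries. The test was limma (linear models with a moderated variance) on log2(CPM + 1), with the 3 treatments in 1 fit and Benjamini-Hochberg adjustment over 12987 genes. A log2 fold change on this scale understates changes of low genes. With limma, 1 gene passed an adjusted p of 0.05 (0.0077% of those tested). At an unadjusted p under 0.05, 474 genes were higher (3.65%) and 213 lower (1.64%), together 687 or 5.29%. The log2 fold change was above 0 in 58.6% of genes, with a median of 0.02 and 90% of genes between -0.18 and 0.25. Of the 687 genes, 69.0% were higher, but with quantile normalization the split was 358 higher and 331 lower (52 and 48%), and with the columns rescaled to the same total over genes it was 342 and 295 (53.7 and 46.3%). Leaving out control 1 gave 1217 genes at unadjusted p under 0.05, leaving out control 2 gave 252, and leaving out high 2 turned the split to 191 higher and 287 lower.

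Each high library was also set against both controls. High 1 lay above both in 42% of genes and below both in 27.3%, and high 2 did so in 41.7% and 29.5%. Both high libraries lay above both controls in 3056 genes (23.5%) and below both in 1572 (12.1%). These shares are the background for every count below. The high libraries differed from the controls about as much as the controls differed from each other. The median absolute difference on the log2(CPM + 1) scale was 0.087 between the controls, 0.097 between the high libraries, and 0.076 (control 1 and high 1), 0.090 (control 1 and high 2), 0.107 (control 2 and high 1) and 0.096 (control 2 and high 2) across groups. In relative depth, from the size of the smallest CPM step, high 1 and high 2 stood at 0.824 and 0.869 of control 1 and control 2 at 1.02.

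Only 9 genes differed by at least 2-fold on this scale. In 8 of them both high libraries lay above both controls, among them Gm23935, Esrrb, Cdx1, Hapln1, Aldh1a2, Morc4 and Mir6236, and the ninth, Prl3d1, had a log2 fold change of -1.02 (SE 1.37) with overlapping groups. Hapln1, a link protein of the hyaluronan matrix, was picked out after its values were seen, with 3.56 and 2.42 CPM in the control libraries and 5.19 and 12.2 in the high libraries.

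**Figure D1:**
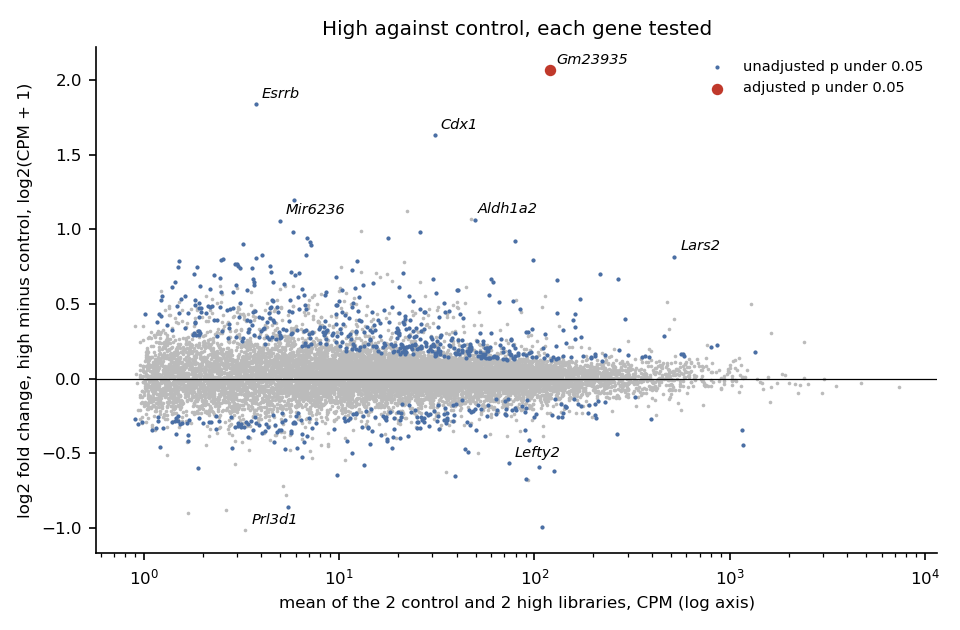
Log2 fold change of the high against the control libraries on the log2(CPM + 1) scale (vertical axis) against the mean CPM of the 4 libraries (horizontal axis, logarithmic), 1 point per gene. Genes at unadjusted p under 0.05 are blue, and Gm23935, in red, is the 1 gene that passed the adjusted threshold.

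The gene that passed was Gm23935 (ENSMUSG00000076258), a predicted noncoding RNA of 57 bases. It had 56.6 and 36.6 CPM in the control libraries, 128 and 125 in the low libraries and 192 and 195 in the high libraries. The high libraries agreed closely and lay more than 3 times above the higher control. It rose with a log2 fold change of 2.07 (SE 0.17) and an adjusted p of 0.0438 by limma. Over the alternative settings the log2 fold change was 1.76 to 2.37. The adjusted p by limma ranged from 5.59e-05 to 0.923, and the call was lost without the mean-variance trend (0.273), with columns of the same number paired (0.0558), without high 1 (0.84) and without high 2 (0.923). The gene lies at chr16:11144125-11144181 in the table, whose starts match GRCm38, within the RefSeq gene Zc3h7a. That host gene, which encodes a zinc finger protein, had 25.9 and 25.7 CPM in the control libraries and 25.9 and 30.6 in the high libraries, with a log2 fold change of 0.12 (SE 0.088).

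The other features with stretches like ribosomal RNA sequence differed in the same direction. Such features can take up reads of ribosomal RNA and are used as a sign of how much of it a library holds. Their sequences were not examined here, and the list was chosen with earlier results of these data known. Of 19 listed, 5 were measured. Besides Gm23935 these were 4, all of which lay above both controls in both high libraries, against 23.5% of all genes. The median log2 fold change of the 4 was 0.80, beside 0.02 over all genes. Lars2, the mitochondrial leucyl-tRNA synthetase whose annotation holds such a stretch, had 402 and 348 CPM in the control libraries, 510.5 and 449 in the low and 712 and 611 in the high libraries. Its log2 fold change was 0.82 (SE 0.11) with an adjusted p of 0.507 by limma. Mir6236 had 3.34 and 2.41, 4.74 and 4.15 and 7.56 and 6.48 CPM in the same order, a log2 fold change of 1.06 (SE 0.14). Both features were lowest in the controls, intermediate in the low and highest in the high libraries, with no overlap between groups. Gm26917 (ENSMUSG00000097971) had 8.09 and 9.47 CPM in the control libraries and 17.5 and 14.4 in the high libraries, a log2 fold change of 0.79 (SE 0.14). Gm42418 (ENSMUSG00000098178) had 126 and 145 CPM in the control libraries and 192 and 165 in the high libraries, the smallest difference of all 5 at 0.39 (SE 0.11). The mean level of the 4 on the log2(CPM + 1) scale was 5.24 and 5.20 in the controls, 5.66 and 5.44 in the low and 6.09 and 5.87 in the high libraries. Between high and control the exact permutation test gave p = 0.333, the smallest that 2 against 2 libraries allow. The share of reads without a unique alignment was 21.9 and 22.2% of the column in the controls, 22.9 and 22.6% in the low and 21.6 and 20.8% in the high libraries. It was thus above both controls in the low and below both in the high libraries.

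The mature miRNA annotated at the Mir6236 locus (RefSeq, GRCm38.p6, chr9:110281353-110281371, plus strand) is shown because the feature was among those that separated the groups most. Its seed, bases 2 to 8, is in capitals. The CPM values count reads of the whole locus and are not a measure of the mature miRNA.
mmu-miR-6236: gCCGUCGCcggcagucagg

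**Figure D2:**
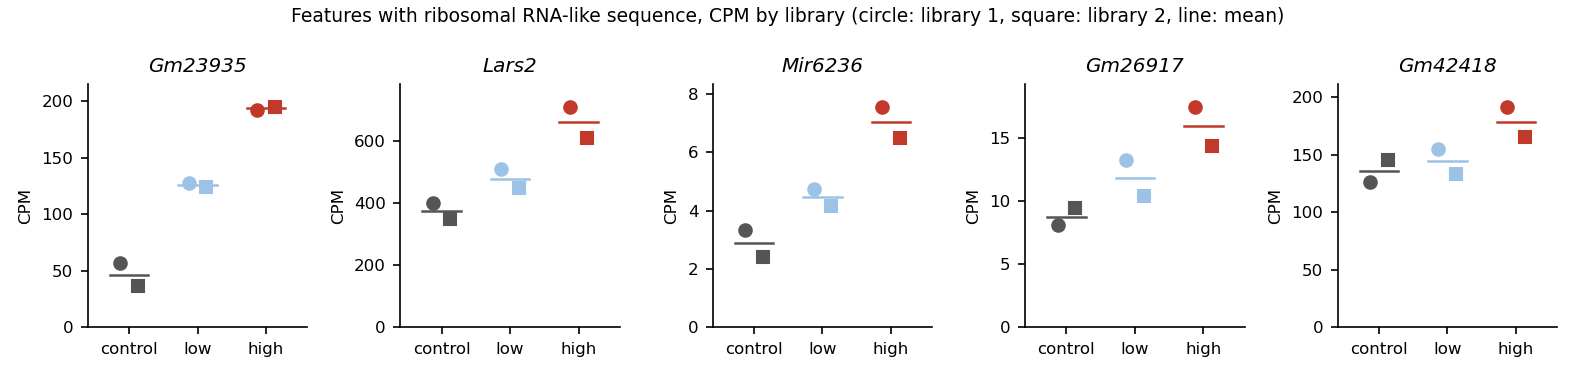
CPM (vertical axis, from 0) of the 5 features with ribosomal RNA-like sequence in the 2 control, 2 low and 2 high libraries (circle, library 1; square, library 2; line, group mean). For Gm23935, Lars2, Mir6236 and Gm26917 both low libraries lie above both controls and both high libraries above both low ones.

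Genes of retinoic acid synthesis, transport and breakdown and its receptors, taken as 1 list, were mostly higher in the high libraries. Cyp26a1, which breaks retinoic acid down, was not. Of 16 measured genes, 12 had a log2 fold change above 0 and 5 were higher at unadjusted p under 0.05, with 0 lower. In 7 both high libraries lay above both controls (43.8%, against 23.5% of all genes), and the median was 0.13. In these bulk libraries a different number of cells of a type and a different amount of RNA per cell cannot be told apart. Aldh1a2, the retinaldehyde dehydrogenase of the gastrula, had 35.3 and 25.8 CPM in the control libraries and 59.7 and 69.5 in the high libraries, a log2 fold change of 1.07 (SE 0.60) and an unadjusted p of 0.118 by limma. In the low libraries it had 1.36 and 10.3 CPM, so these lay below both controls. Rdh10, which makes the retinaldehyde that Aldh1a2 uses, had 11.7 and 9.80 CPM in the control libraries and 12.3 and 14.8 in the high libraries. Crabp2, which binds retinoic acid in the cell, had 31.2 and 34.8 CPM in the high libraries against 25.3 and 19.3 in the controls. For Rdh10 and Crabp2 too the groups did not overlap. Dhrs3, which turns retinaldehyde back to retinol, had 1.56 and 1.59 CPM in the control libraries and 2.29 and 2.13 in the high libraries.

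Among the receptors, Rarb, the receptor gene that is itself a target of retinoic acid, had 2.29 and 1.56 CPM in the control libraries and 4.05 and 3.85 in the high libraries and a log2 fold change of 0.77 (SE 0.18). Rara, Rarg, Rxra and Rxrb had log2 fold changes between -0.016 and 0.045. Cyp26a1, which breaks retinoic acid down and is a target of it too, had 72.5 and 74.8 CPM in the control libraries and 67.3 and 67.1 in the high libraries, and both high libraries lay below both controls. So 1 of these 2 targets lay above the controls and 1 below. Against control 2 alone the list's median was 0.29, and against control 1 alone it was 0.13.

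Retinoic acid receptors bind direct repeats of a 6-base element. The promoters of the listed genes (RefSeq, GRCm38.p6, 250 bases before to 50 after the start) were searched on both strands for 2 elements, with 5 bases between them. Each element could be AGGTCA, its variant AGTTCA, the further variant GGGTCA, or the last variant searched, GGTTCA. Of 12 genes with a promoter sequence, 2 held the repeat, Cyp26a1 and Rarb, against 0.115% of 27025 genes. None of the 4 Hox genes with a promoter sequence held it, which says little for a repeat this rare. Both promoters are printed with the repeat in capitals, because these genes differed in opposite directions. The windows are chr19:37697558-37697857 on the plus strand for Cyp26a1, where the repeat is on the opposite strand, and chr14:16575427-16575726 on the minus strand for Rarb.
Cyp26a1: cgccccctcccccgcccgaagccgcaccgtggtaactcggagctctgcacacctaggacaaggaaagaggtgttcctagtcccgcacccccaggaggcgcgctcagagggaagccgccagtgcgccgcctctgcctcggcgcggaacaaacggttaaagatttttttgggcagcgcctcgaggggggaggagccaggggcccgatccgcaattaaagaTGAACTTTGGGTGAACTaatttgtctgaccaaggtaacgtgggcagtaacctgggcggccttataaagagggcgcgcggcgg
Rarb: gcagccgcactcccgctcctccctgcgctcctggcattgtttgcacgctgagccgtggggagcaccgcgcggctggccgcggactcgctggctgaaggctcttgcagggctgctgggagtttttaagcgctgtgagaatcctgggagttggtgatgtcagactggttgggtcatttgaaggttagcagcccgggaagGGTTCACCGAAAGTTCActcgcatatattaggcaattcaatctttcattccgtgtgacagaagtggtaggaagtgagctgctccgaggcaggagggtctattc

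All 7 measured Hox genes had higher means in the high libraries. They were the early ones of the clusters (among them Hoxa2, Hoxa3, Hoxb1, Hoxb2, Hoxb3 and Hoxd1), and 20 others of the list were not measured. In 6 of 7 both high libraries lay above both controls, against 23.5% of all genes, and 1 was higher at unadjusted p under 0.05. Hoxb1, which responds directly to retinoic acid, had 36.1 and 27.5 CPM in the control libraries, 9.09 and 27.1 in the low and 46.9 and 42.8 in the high libraries. Its log2 fold change was 0.50 (SE 0.40), with an unadjusted p of 0.256 by limma. Hoxb3 had 1.35 and 0.924 CPM in the control libraries and 2.33 and 1.93 in the high libraries and the smallest p of the list (0.00874, unadjusted, by limma). Hoxa2 was the exception to the separation, with 1.51 and 1.06 CPM in the control libraries and 1.44 and 1.80 in the high libraries. The mean level of the 7 genes was 2.65 and 2.32 in the controls and 3.001 and 3.06 in the high libraries on the log2(CPM + 1) scale (exact permutation p = 0.333, the smallest possible). It was 1.31 and 2.32 in the low libraries, and low 1 was the lowest of all 6 libraries in 7 of 7 genes. The median of 0.50 became 0.36 against control 1 alone and 0.69 against control 2 alone.

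The caudal genes leaned the same way as the Hox genes, but less evenly. Of 19 measured, 13 had a log2 fold change above 0, against 58.6% of all genes. Both high libraries lay above both controls in 9 (47.4%, against 23.5% of all genes), and 3 were higher at unadjusted p under 0.05. Cdx1, a caudal homeobox factor upstream of Hox genes, had 20.6 and 9.72 CPM in the control libraries, 2.56 and 7.54 in the low and 51.6 and 41.2 in the high libraries. Its log2 fold change of 1.63 (SE 0.43) was among the 3 largest of all genes, with an unadjusted p of 0.00647 by limma. Cdx2 had 50.8 and 52.6 CPM in the high libraries against 44.1 and 29.6 in the controls, and Cdx4 had 2.17 and 3.77 against 1.97 and 1.53. All 3 Cdx genes were thus above both controls. Msgn1, a factor of presomitic mesoderm, had 11.2 and 8.07 CPM in the control libraries and 17.6 and 15.1 in the high libraries, and Tcf15, a factor of the forming somites, had 2.88 and 2.48 CPM in the control libraries and 4.40 and 4.94 in the high libraries. Rspo3, a secreted enhancer of Wnt signalling, had 19.8 and 17.5 CPM in the control libraries and 21.6 and 27.1 in the high libraries. T, Evx1, Dll3, Lfng and Greb1, also expressed in the streak and caudal end, had log2 fold changes between -0.13 and 0.039. The list's median of 0.25 was 0.06 against control 1 alone, so it rested largely on control 2, which was the lowest of the 4 libraries in 13 of 19 genes.

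Genes of the primitive streak and of Nodal signalling were mostly lower. Of 20 streak and nascent mesoderm genes, 16 had a log2 fold change below 0, 8 lay below both controls in both high libraries (40.0%, against 12.1% of all genes), and 5 were lower at unadjusted p under 0.05, with 0 higher. The median was -0.20. Mixl1, a homeobox factor of the streak, had 42.3 and 54.6 CPM in the control libraries and 31.5 and 28.9 in the high libraries, a log2 fold change of -0.65 (SE 0.19). Eomes, the T-box factor that starts mesoderm and endoderm formation, had 128 and 176 CPM in the control libraries and 109.9 and 86.5 in the high libraries, and Lhx1, a factor of the anterior mesendoderm, had 89.9 and 136 CPM in the control libraries and 75.99 and 62.4 in the high libraries. For all of these the high libraries lay below both controls. Fst, an inhibitor of activin, had 106 and 95 CPM in the control libraries and 81.6 and 76.5 in the high libraries and the smallest p of the list (0.00143, unadjusted, by limma). Snai1, which represses E-cadherin when cells leave the epiblast, had 41.2 and 36.7 CPM in the control libraries and 33.4 and 30.5 in the high libraries. T and Mesp1 had log2 fold changes of -0.13 and -0.039 with overlapping groups. The controls themselves differed, with Eomes and Lhx1 higher in control 2 than in control 1, and low 1 was the highest of all 6 libraries in 9 of the 20 genes.

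Of 16 genes of the Nodal pathway, 11 had a log2 fold change below 0. Both high libraries lay below both controls in 7 and above both in 2 (43.8 and 12.5%), and the median was -0.10. The ligand Nodal had 8.14 and 11.8 CPM in the control libraries and 8.97 and 6.09 in the high libraries, so its groups overlapped. Its coreceptor Tdgf1 had 89.9 and 140.1 CPM in the control libraries and 81.3 and 60.02 in the high libraries. The secreted inhibitors were lower: Lefty2 had 89.2 and 87.2 CPM in the control libraries and 64.1 and 54.9 in the high libraries. With a log2 fold change of -0.56 (SE 0.093) and an unadjusted p of 4.14e-04 by limma, it had the smallest p of all genes that were lower. The low libraries had 130.5 and 113 CPM, above both controls. Cer1, an inhibitor made by the anterior visceral endoderm and definitive endoderm, had 115 and 140.4 CPM in the control libraries and 87.6 and 80.03 in the high libraries, a log2 fold change of -0.59 (SE 0.13), and Lefty1 had 3.17 and 4.08 CPM in the control libraries and 2.55 and 0.764 in the high libraries. The receptors and transducers differed little: Acvr1b, Acvr2b, Smad2, Smad4 and Foxh1 had log2 fold changes between -0.12 and 0.082.

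**Figure D3:**
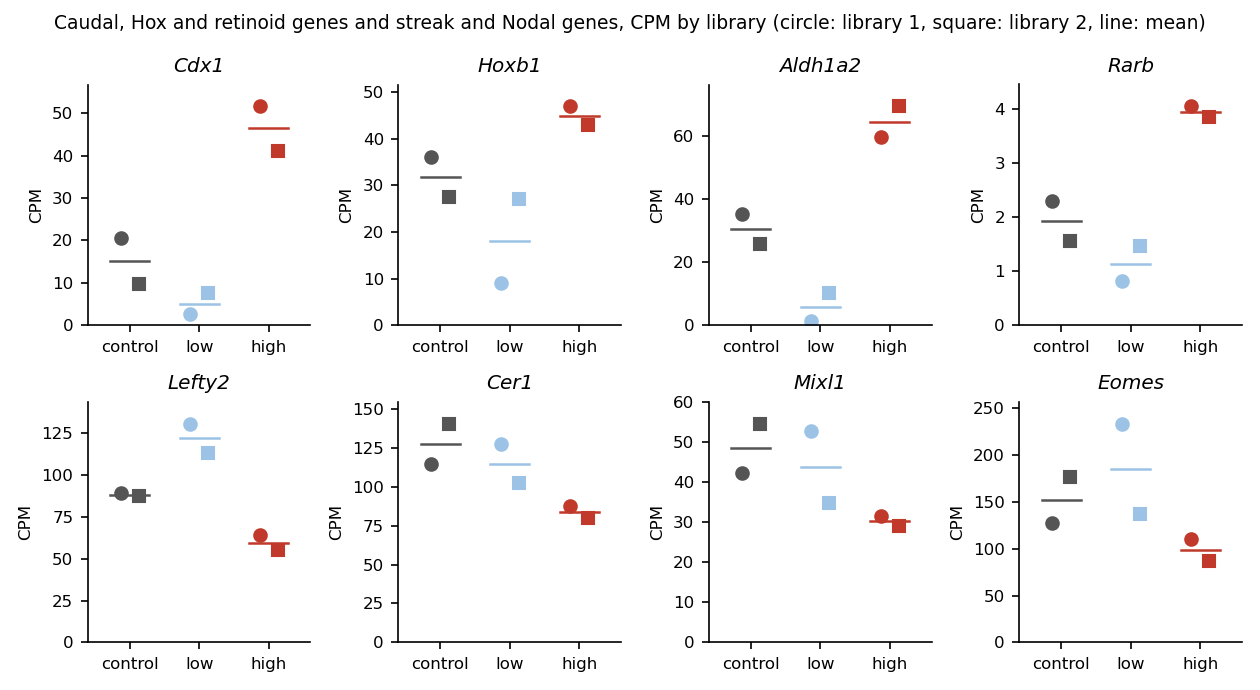
CPM (vertical axis, from 0) of 4 caudal, Hox and retinoid genes (top) and 4 streak and Nodal genes (bottom) in the 2 control, 2 low and 2 high libraries (circle, library 1; square, library 2; line, group mean). The high libraries lie above all other libraries for the top genes and below them for the bottom genes, and low 1 lies lowest for each of the top genes.

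Pluripotency genes of the epiblast were lower on balance. Of 19 measured, 15 had a log2 fold change below 0 and 10 lay below both controls (52.6%, against 12.1% of all genes). The other 4 had a log2 fold change above 0, and 4 lay above both controls (21.1%, against 23.5% of all genes). At unadjusted p under 0.05, 2 were lower and 2 higher. Dnmt3b, the DNA methyltransferase of the epiblast, had 1191 and 1389 CPM in the control libraries and 1089 and 939.9 in the high libraries, and Sall4, a zinc finger factor of pluripotent cells, had 337 and 342 CPM in the control libraries and 314 and 309.8 in the high libraries. Pou5f1 and Nanog had log2 fold changes of -0.24 (SE 0.12) and -0.31 (SE 0.15). Sox2 had 40.6 and 36.2 CPM in the control libraries and 36.3 and 39.5 in the high libraries, with overlapping groups. The 2 genes that were higher at that threshold go against the direction of most of the list. Esrrb, an orphan nuclear receptor of naive pluripotent cells and of extraembryonic ectoderm, had 1.06 and 1.07 CPM in the control libraries, 3.17 and 0.747 in the low and 7.02 and 5.77 in the high libraries. Its log2 fold change was 1.84 (SE 0.35) with an adjusted p of 0.866 by limma. In fits that left out both low libraries, or either of them, its adjusted p by limma was 0.00681, 0.00721 and 0.00657. Zfp42, another gene of naive cells, had 1.37 and 0.813 CPM in the control libraries and 1.94 and 2.07 in the high libraries. The list's median of -0.21 was -0.11 against control 1 alone and -0.36 against control 2 alone.

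FGF ligands and their feedback genes were mostly lower and the receptors mostly higher. Of 22 measured, 14 had a log2 fold change below 0, and the median was -0.07. Both high libraries lay below both controls in 8 and above in 4 (36.4 and 18.2%, against 12.1 and 23.5% of all genes). Fgf5, the FGF of the epiblast, had 34.7 and 51.3 CPM in the control libraries and 31.5 and 23.1 in the high libraries. Etv1, a factor that FGF signalling induces, had 12.7 and 11.5 CPM in the high libraries against 16.4 and 16.97 in the controls (unadjusted p 0.00822 by limma). Spry2, a feedback inhibitor, had 31.7 and 33.2 against 38.3 and 39.9 (unadjusted p 0.0253 by limma). Spry4, Dusp6 and Etv5 also lay below both controls, with log2 fold changes of -0.31, -0.23 and -0.23. The 4 receptors Fgfr1 to Fgfr4 all lay above both controls, with log2 fold changes from 0.17 to 0.39.

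Wnt pathway genes did not lean in 1 direction: 9 of 35 lay above and 9 below both controls, and the median was 0.01. Among the ligands, Wnt6 had 4.50 and 5.57 CPM in the high libraries against 2.84 and 2.06 in the controls, and Wnt8a had 29.1 and 29.9 against 24.8 and 20.8. The ligand Wnt2b was lower, with 29.9 and 26.9 against 36.3 and 33.1, as was the receptor Fzd8, with 15.8 and 12.4 against 16.3 and 21.1. These 4 were the members at unadjusted p under 0.05. Axin2, a target of the pathway, had 82.1 and 72.7 CPM in the control libraries and 84.7 and 77.7 in the high libraries, and its groups overlapped. Tcf7l2, a transcription factor of the pathway, was among the 8 lower genes of smallest p, with 33.5 and 30.5 CPM in the control libraries and 26.3 and 24.5 in the high libraries, a log2 fold change of -0.32 (SE 0.074).

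Genes of the BMP pathway were mostly higher. Of 23 measured, 18 had a log2 fold change above 0, against 58.6% of all genes. Both high libraries lay above both controls in 9 and below in 1 (39.1 and 4.35%, against 23.5 and 12.1% of all genes). At unadjusted p under 0.05, 5 were higher and 0 lower. Smad6, an inhibitory Smad that BMP signalling induces, had 14.8 and 17.8 CPM in the high libraries against 11.1 and 9.28 in the controls, and Smad7, the other one, had 11.2 and 11.7 against 9.12 and 9.07. Id2, an inhibitor of bHLH factors and a BMP target, had 29.7 and 20.4 CPM in the control libraries and 32.4 and 42.5 in the high libraries, and Bambi, a pseudoreceptor, had 18.2 and 17.4 CPM in the control libraries and 20.8 and 23.6 in the high libraries. The ligand Bmp4 had 9.40 and 7.39 CPM in the control libraries and 10.2 and 16.2 in the high libraries, and the inhibitor Chrd had 33.3 and 39.9 CPM in the control libraries and 33.7 and 24.5 in the high libraries. The median of 0.16 was 0.04 against control 1 alone. In the Hedgehog pathway 7 of 13 genes lay above both controls (53.8%, against 23.5% of all genes). Its median was 0.13, which was 0.05 against control 1 alone and 0.22 against control 2 alone. Its target Gli1 had 14.3 and 15 CPM in the high libraries against 10.5 and 8.14 in the controls, and its receptor and target Ptch1 had 57.9 and 64.03 against 56.6 and 49.1. The ligands Shh and Ihh had log2 fold changes of 0.43 (SE 0.25) and 0.62 (SE 0.27).

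Genes of mesoderm derivatives were mostly higher, more so in high 2 than in high 1. Of 16 heart field and paraxial mesoderm genes, 10 lay above both controls (62.5%, against 23.5% of all genes) and 0 below, with a median of 0.41. Hand2, a heart field factor, had 4.33 and 3.75 CPM in the control libraries and 6.61 and 7.95 in the high libraries, whereas the contractile genes Myl7 and Myh6 had log2 fold changes of -0.041 and -0.0026. Of 14 blood and endothelial progenitor genes, 6 lay above and 2 below both controls (42.9 and 14.3%, against 23.5 and 12.1% of all genes). In this list 5 were higher at unadjusted p under 0.05. Tal1, a founding factor of blood progenitors, had 6.91 and 9.15 CPM in the high libraries against 4.05 and 3.09 in the controls, and its partner Lmo2 had 6.65 and 6.52 against 4.39 and 3.43. The endothelial receptor Tek had 1.09 and 1.08 CPM in the control libraries and 1.60 and 3.70 in the high libraries. Gata1, the red cell factor, had 2.34 and 2.40 CPM in the control libraries and 1.90 and 2.04 in the high libraries, below both controls. All 15 extraembryonic mesoderm genes had a log2 fold change above 0, and 7 lay above both controls (46.7%, against 23.5% of all genes). High 2 stood further from the controls than high 1: the list's median against the control mean was 0.15 in high 1 and 0.67 in high 2. Hand1, a factor of this tissue and of giant cells, had 35.4 and 28.7 CPM in the control libraries and 32.01 and 56.8 in the high libraries, and Pmp22, a membrane protein, had 11.8 and 11.9 CPM in the control libraries and 14.3 and 26.8 in the high libraries. For the heart list the medians were 0.21 in high 1 and 0.60 in high 2, and for the blood list 0.23 and 0.52. For the heart, blood and extraembryonic mesoderm lists in this order, the medians were 0.30, 0.13 and 0.26 against control 1 alone. Against control 2 alone they were 0.55, 0.69 and 0.56. Control 2 was the lowest of the 4 libraries in 12 of 16, 12 of 14 and 10 of 15 genes. The mean level of the blood genes was 2.65 and 2.07 in the controls and 2.55 and 2.87 in the high libraries on the log2(CPM + 1) scale.

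Node and definitive endoderm genes leaned lower and neural plate genes were mixed. Of 18 node and endoderm genes, 5 lay below and 3 above both controls. Foxa2, a forkhead factor of both tissues, had 35.95 and 36.4 CPM in the control libraries and 32.2 and 25.2 in the high libraries, and Krt18, a keratin, had 164 and 150.4 CPM in the control libraries and 181 and 201 in the high libraries. The median against the control mean was -0.02 in high 1 and -0.23 in high 2. Of 13 neural plate genes, 5 lay above and 5 below both controls. Of the SoxB factors, Sox1 had 2.25 and 2.88 CPM in the high libraries against 1.47 and 1.16 in the controls, and Sox21 had 4.07 and 4.42 against 2.41 and 2.54. Hesx1, a factor of the anterior plate, had 3.54 and 3.54 CPM in the control libraries and 4.87 and 5.48 in the high libraries. The anterior factor Otx2 was lower, with 75.6 and 72.02 CPM in the high libraries against 82.1 and 108 in the controls, as was the zinc finger factor Zic5, with 48.2 and 48.4 against 56.1 and 71.4. The list's median of 0.16 was -0.13 with a filter of 10 CPM. Of 9 primordial germ cell genes 5 lay above both controls (55.6%, against 23.5% of all genes) and 0 passed an unadjusted p of 0.05. Kit, the receptor of germ cells, had 27.6 and 27.96 CPM in the control libraries and 28.3 and 28.3 in the high libraries.

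Genes of the visceral and parietal endoderm were lowest in control 2. Of 37 measured, 33 had a log2 fold change above 0 and 15 were higher at unadjusted p under 0.05, with 0 lower. In 16 both high libraries lay above both controls (43.2%, against 23.5% of all genes). High 1 lay above both controls in the same number, 16 of 37, near the 42% of all genes, and high 2 did so in 27. Apoc2, an apolipoprotein that activates lipoprotein lipase, had 74.9 and 38.4 CPM in the control libraries, 70.9 and 87.5 in the low and 90.5 and 116 in the high libraries, with the smallest p of the list (0.0121, unadjusted, by limma). Apoa1 had 212 and 124 CPM in the control libraries and 234 and 299 in the high libraries, and Ttr, which carries thyroid hormone and retinol-binding protein, had 132 and 74.05 CPM in the control libraries and 136 and 181 in the high libraries. Rhox5, an X-linked homeobox gene of extraembryonic tissue, had 39.5 and 25.3 CPM in the control libraries and 44.4 and 52.4 in the high libraries, and S100g, a calcium-binding protein, had 3.39 and 1.81 CPM in the control libraries and 3.88 and 6.99 in the high libraries. Control 1 was close to high 1 for these genes. Apob, Cubn and Dab2, for which control 1 was the highest or second-highest library, had log2 fold changes of 0.22 (SE 0.35), 0.51 (SE 0.37) and 0.25 (SE 0.25). Control 2 was the lowest of the 4 libraries in 34 of 37 genes. The median log2 fold change was 0.43 with both controls, 0.11 against control 1 alone and 0.78 against control 2 alone. The mean level was 5.58 and 4.90 in the controls and 5.51 and 5.76 in the high libraries on the log2(CPM + 1) scale (exact permutation p = 0.667).

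The 2 controls stood apart from each other for the basement membrane genes that the parietal endoderm makes in quantity. Lama1, a laminin chain, had 231 and 48.98 CPM in the control libraries and 124 and 109 in the high libraries, and Col4a1, a type IV collagen, had 768 and 282 CPM in the control libraries and 454 and 452 in the high libraries. For both genes control 1 was the highest and control 2 the lowest of the 4, with the high libraries between them. Of 26 matrix genes, 7 lay above and 1 below both controls, near the background. Control 2 was the lowest of the 4 libraries in 21 of the 26, and control 1 the highest in 12. Vcan, a proteoglycan of the embryonic mesenchyme, had 32.6 and 30.4 CPM in the control libraries and 40 and 57.2 in the high libraries and was the only 1 of the list at unadjusted p under 0.05 (0.00439, by limma). The list's median was 0.06, -0.02 against control 1 alone and 0.24 against control 2 alone.

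**Figure D4:**
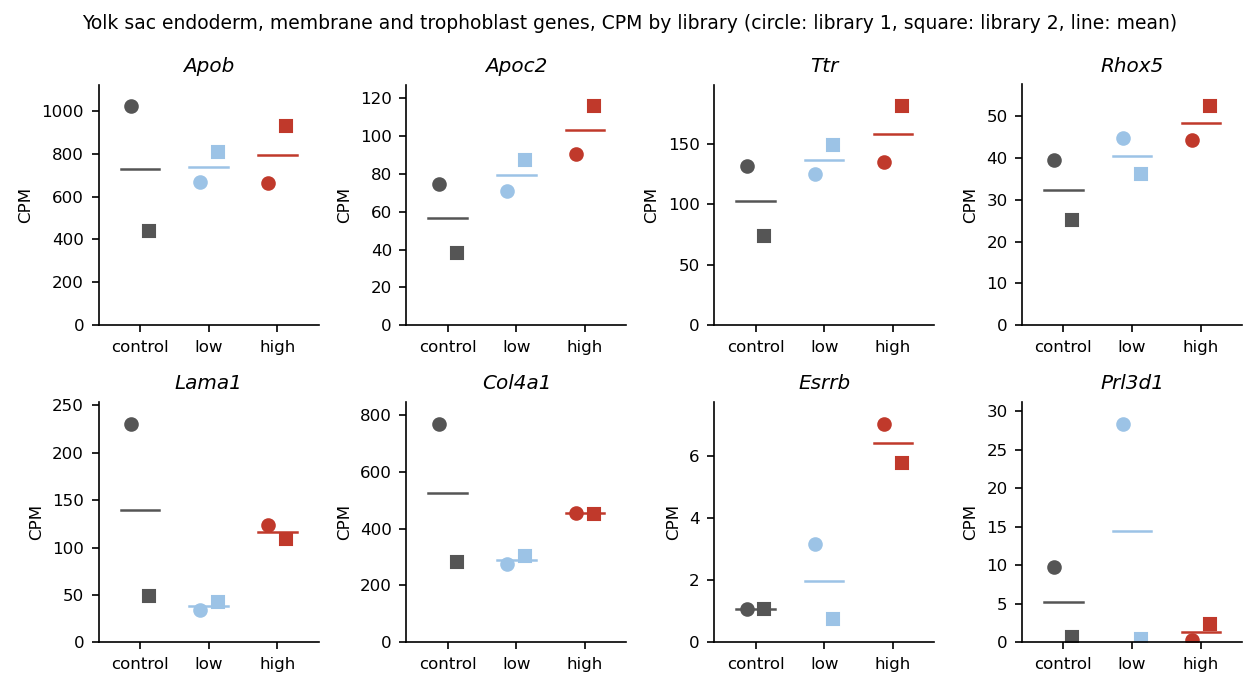
CPM (vertical axis, from 0) of yolk sac endoderm genes (Apob, Apoc2, Ttr, Rhox5), basement membrane genes (Lama1, Col4a1) and genes of the extraembryonic ectoderm and trophoblast (Esrrb, Prl3d1) in the 2 control, 2 low and 2 high libraries (circle, library 1; square, library 2; line, group mean). Control 2 lies below both high libraries for the first 6 genes, whereas control 1 lies near or above high 1 for most of them.

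Genes of the trophoblast and extraembryonic ectoderm were mostly higher. Of 20 measured, 12 lay above both controls and 2 below (60 and 10%, against 23.5 and 12.1% of all genes). At unadjusted p under 0.05, 6 were higher and 1 lower. Besides Esrrb, Ddah1, which degrades methylated arginine, had 20.8 and 18.9 CPM in the control libraries and 25.4 and 27.3 in the high libraries. Several of these genes also mark other tissues, as Sox21 and Sox3 do the neural plate, and Eomes, the gene that was lower, the streak. Prl3d1 and Plac1 varied within groups: Plac1 had 4.68 and 1.72 CPM in the controls, 24.4 and 2.85 in the low and 2.48 and 4.55 in the high libraries. The list's median of 0.31 was 0.18 against control 1 alone. Of 11 maternal decidua genes, 6 lay above both controls (54.5%, against 23.5% of all genes) and 4 were higher at unadjusted p under 0.05. These 4 are also expressed in other tissues. Besides Hand2 and Wnt6, given above with the heart field and the Wnt ligands, they were Cebpb, a leucine zipper factor, with 2.45 and 2.24 CPM in the high libraries against 1.19 and 1.46 in the controls, and Igfbp5, which binds insulin-like growth factors, with 32.3 and 41.6 against 27.4 and 18.9. Prl8a2, a prolactin of the decidua, had 2.49 and 1.53 CPM in the control libraries and 3.32 and 0.801 in the high libraries, and the progesterone receptor gene Pgr had 3.02 and 3.13 CPM in the control libraries and 2.96 and 3.30 in the high libraries, with overlapping groups for both.

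Targets of the PPARs differed little. Of 33 measured genes of fatty acid oxidation and PPAR response, 14 lay above and 3 below both controls (42.4 and 9.09%), 5 were higher and 0 lower at unadjusted p under 0.05, and the median was 0.07. Ehhadh, the bifunctional enzyme of peroxisomal oxidation and a known target, had 4.46 and 2.67 CPM in the control libraries and 4.61 and 5.90 in the high libraries, with control 2 the lowest of the 4. Acaa1a, the thiolase of the peroxisome, had 27.3 and 27.5 CPM in the high libraries against 24.2 and 23.2 in the controls, and Acaa2, that of the mitochondrion, had 15.96 and 15.5 against 14.5 and 11.6. Not all classical targets lay above the controls. Cpt1a, which brings fatty acids to the mitochondrion, and Angptl4, a lipase inhibitor, lay below both controls, with 1.19 and 1.11 against 1.25 and 1.27 and with 5.91 and 5.21 against 5.97 and 6.08 CPM. Plin2, which coats lipid droplets, had 23.4 and 23.3 CPM in the high libraries against 22.9 and 21.4 in the controls, a log2 fold change of 0.074 (SE 0.077). Ppara, Pparg, Cyp4a10 and Cyp4a14 were not among the genes listed. The receptor Ppard had 16.4 and 15.3 CPM in the control libraries and 15.8 and 15.9 in the high libraries, with overlapping groups. A repeat of the same 6-base elements with 1 base between them, the form that PPARs bind, was in 0 of 28 promoters of this list and in 0.263% of all genes. A match this rare was unlikely in 28 promoters, so the 0 does not show that the list lacks such elements.

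Other nuclear receptor genes lay near the background and lipid synthesis genes at or below it. Of 16 nuclear receptor genes 4 lay above and 2 below both controls. Besides Esrrb, Nr2f6 had 34.8 and 33.2 CPM in the control libraries and 40.8 and 41.9 in the high libraries and an unadjusted p of 0.00298 by limma, and the low libraries, at 42.9 and 45.3, lay above the controls too. The aryl hydrocarbon receptor gene Ahr had a log2 fold change of -0.19 (SE 0.11). Of 25 genes of cholesterol, steroid and fatty acid synthesis 1 lay above and 3 below both controls and 0 passed an unadjusted p of 0.05 by limma. Of 28 genes of glycolysis and the hypoxia response 3 lay above and 3 below, and Ndrg1, a hypoxia target, had 20.2 and 24.6 CPM in the control libraries and 18.9 and 18.8 in the high libraries. In this list control 2 was the highest of the 4 libraries in 22 genes.

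Genes of the unfolded protein response were slightly higher, mainly in high 2. Of 26 measured, 23 had a log2 fold change above 0, and the median was 0.12. Both high libraries lay above both controls in 14 (53.8%, against 23.5% of all genes) and below in 0. High 2 was the highest of the 4 libraries in 20 of 26. Xbp1, a factor that switches on chaperone genes, had 53.4 and 62.98 CPM in the high libraries against 46.4 and 46.95 in the controls, and 52.5 and 60.1 in the low libraries. Hspa5, the main chaperone of the endoplasmic reticulum, had 728 and 759.7 CPM in the control libraries and 798 and 926 in the high libraries, a log2 fold change of 0.21 (SE 0.083). Dnajb11, its cochaperone, had 80.3 and 86.3 CPM in the high libraries against 75.8 and 66.7 in the controls, and Manf, a secreted factor of that compartment, had 97.3 and 108 against 91.2 and 89.2. Ddit3 and Trib3, genes of prolonged stress, had log2 fold changes of -0.068 and -0.21 with overlapping groups.

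The promoters of this list were searched on both strands for CCAAT followed after 9 bases by CCACG, the response element of this pathway. It was in 7 of 23 genes with a promoter sequence (Hspa5, Hsp90b1, Pdia6, Calr, Canx, Dnajc3 and Creld2), against 0.137% of all genes. In the whole list 14 of 26 genes (53.8%) lay above both controls in both high libraries. Of the 7 with the element, Hspa5, Hsp90b1, Pdia6 and Calr did so, a share near that of the list. Their log2 fold changes were from 0.13 to 0.21, and Canx, Dnajc3 and Creld2 did not lie above both controls. The promoter of Hspa5 (chr2:34771840-34772139, plus strand) is shown as the example of smallest p among the 7, with the element nearest the start in capitals.
Hspa5: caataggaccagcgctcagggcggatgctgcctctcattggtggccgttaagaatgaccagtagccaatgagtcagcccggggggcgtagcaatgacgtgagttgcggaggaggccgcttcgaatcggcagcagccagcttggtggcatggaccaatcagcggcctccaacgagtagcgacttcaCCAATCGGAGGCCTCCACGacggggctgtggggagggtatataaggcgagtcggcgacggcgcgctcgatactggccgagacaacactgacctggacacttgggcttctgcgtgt

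Oxidative stress and metal-responsive genes were higher by small amounts. Of 28 measured, 15 lay above and 2 below both controls (53.6 and 7.14%, against 23.5 and 12.1% of all genes). At unadjusted p under 0.05, 6 were higher and 0 lower, and the median was 0.07. Gpx3, a secreted glutathione peroxidase, had 56.6 and 39.8 CPM in the control libraries and 73.3 and 76.4 in the high libraries, the largest log2 fold change of the list at 0.65 (SE 0.15). The metallothionein Mt1 had 39.2 and 45.3 CPM in the high libraries against 34.8 and 26.9 in the controls, and Mt2 had 36.1 and 44.6 against 32.8 and 26. Fth1, a ferritin chain, had 467 and 368 CPM in the control libraries and 499 and 513 in the high libraries. The standard targets of Nrf2 differed less: Nqo1, Gclm, Gclc and Txnrd1 had log2 fold changes between -0.039 and 0.026. Of 28 p53 targets, 8 lay above and 2 below both controls. Phlda3, an Akt inhibitor that p53 induces, had 8.73 and 7.25 CPM in the high libraries against 5.67 and 5.08 in the controls, and the kinase Plk2 had 4.18 and 3.77 against 3.03 and 2.88. Pmaip1, a death gene, was lower, with 42.1 and 46.4 against 49.6 and 63.8. Cdkn1a, the cell cycle inhibitor, had 13.5 and 10.1 against 10.6 and 10.8, so its groups overlapped. Of 25 immediate early and heat shock genes 5 lay above both controls, near the background. Jund, a component of AP-1, had 24.2 and 22.7 CPM in the high libraries against 21.04 and 20.2 in the controls. The heat shock gene Hspa1b, which shares reads with its near-identical copy Hspa1a, varied within groups, at 2.01 and 6.47 against 0.694 and 7.91.

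Respiratory chain genes were mostly higher, by a median log2 fold change of 0.08. Of 74 nuclear genes measured, 69 had a log2 fold change above 0, 40 lay above both controls in both high libraries (54.1%, against 23.5%) and 10 were higher at unadjusted p under 0.05, with 0 lower. High 1 lay above both controls in 71, against 42% of all genes. High 2 lay above both in 40 and below both in 15, against 41.7 and 29.5% of all genes. The median against the control mean was 0.11 in high 1 and 0.04 in high 2. High 1 also exceeded high 2 in this count in each complex but succinate dehydrogenase. High 1 was above both controls for 34 of 37 NADH dehydrogenase subunits, 4 of 4 of succinate dehydrogenase, 9 of 9 of cytochrome bc1 with cytochrome c, 10 of 10 of cytochrome c oxidase and 14 of 14 of ATP synthase. High 2 was above both for 17, 4, 5, 5 and 9 of them. Cox5a, a cytochrome c oxidase subunit, had 125 and 126 CPM in the high libraries against 100 and 103 in the controls, and 123 and 119 in the low libraries. Its log2 fold change was 0.30 (SE 0.052), with the smallest p of the list (5.75e-04, unadjusted, by limma). Of the NADH dehydrogenase subunits, Ndufb5 had 48.02 and 48.7 CPM in the high libraries against 41.6 and 43.1 in the controls, and Ndufab1 had 76.7 and 80.3 against 69.3 and 68.7. No mitochondrially encoded gene was among those listed.

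Ribosomal protein genes separated the high libraries from each other. Of 80 measured, 78 lay above both controls in high 1, against 42% of all genes. In high 2, 30 lay above and 25 below, near the 41.7 and 29.5% of all genes. The median against the control mean was 0.12 in high 1 and 0.01 in high 2. Rps2, of the small subunit, had 1242 and 1285 CPM in the control libraries and 1472 and 1388 in the high libraries, and Rpl13, of the large subunit, had 531 and 530.5 CPM in the control libraries and 617 and 573 in the high libraries. By subunit, both high libraries lay above both controls for 11 of 33 genes of the small and 19 of 47 of the large subunit. Rps3a3, a copy of the Rps3a gene that can share reads with it, had 4.58 and 13.5 CPM in the control libraries and 14.96 and 18.9 in the high libraries. DNA replication and mitosis genes lay near the background. Of 35 replication genes 8 lay above and 1 below both controls, and Cdc45, a helicase factor, had 37.99 and 37.2 CPM in the control libraries and 42.9 and 42.2 in the high libraries. Of 27 mitosis genes 5 lay above and 2 below, and Ccnb1, the mitotic cyclin, had 255 and 229 CPM in the control libraries and 221 and 212 in the high libraries.

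Among imprinted genes the growth factor Igf2 and the Polycomb-like gene Sfmbt2 were higher. Of 41 measured, 14 lay above and 4 below both controls (34.1 and 9.76%), and 2 were higher and 1 lower at unadjusted p under 0.05. Sfmbt2, expressed from the paternal allele in extraembryonic tissue, had 14.7 and 9.38 CPM in the control libraries and 23.8 and 23.3 in the high libraries. Its low libraries were split, at 24.3 and 11.4 CPM. Igf2, also paternally expressed, had 259.9 and 158 CPM in the control libraries and 292 and 355 in the high libraries. H19, its maternally expressed neighbour, had 1374 and 788 CPM in the control libraries and 1286 and 1681 in the high libraries, and Dlk1, a paternally expressed Notch-like ligand, had 19.1 and 11.96 CPM in the control libraries and 21.8 and 32.8 in the high libraries. For Igf2, H19 and Dlk1 control 2 was the lowest and high 2 the highest of the 4 compared libraries, as for the yolk sac endoderm genes. Asb4, a ubiquitin ligase subunit, was the gene that was lower, with 34.8 and 40.3 CPM in the control libraries and 27.7 and 34.04 in the high libraries. Grb10, Gnas, Meg3 and Peg3 had log2 fold changes between -0.008 and 0.044.

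Of the DNA methylation machinery 2 genes passed an unadjusted p of 0.05 by limma, in opposite directions. Of 25 genes, 2 lay above and 3 below both controls. Dnmt3l, the cofactor of the de novo methyltransferases, had 2.72 and 2.12 CPM in the control libraries, 2.54 and 1.65 in the low and 5.19 and 4.24 in the high libraries, a log2 fold change of 0.74 (SE 0.17) and an unadjusted p of 0.00299 by limma. Dnmt3b was lower, as given with the epiblast genes, and Dnmt3a had 163 and 189 CPM in the control libraries and 156 and 143 in the high libraries. Dnmt1, Uhrf1, Tet2 and Tet3 had log2 fold changes between -0.01 and 0.077, and Tet1 had 76.95 and 99.5 CPM in the control libraries and 67.99 and 76.04 in the high libraries. Of 31 Polycomb and histone methylation genes 4 lay above and 7 below both controls. Phc1, a Polycomb component, had 198 and 176 CPM in the high libraries against 214 and 229 in the controls (unadjusted p 0.0168 by limma), and Jarid2, a cofactor of the second Polycomb complex, had 139 and 129.8 against 147 and 159 (unadjusted p 0.0439 by limma). Ezh2, Eed and Suz12 had log2 fold changes between -0.0077 and 0.056. Of 5 measured abundant noncoding RNAs 0 lay above and 2 below both controls, and Malat1 had 42.9 and 48.4 CPM in the control libraries and 41.8 and 41.2 in the high libraries.

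The remaining genes of smallest p or largest difference belong to none of these groups. Scand1, a SCAN domain protein, had 9.28 and 7.74 CPM in the control libraries, 13.1 and 16.2 in the low and 14.4 and 14.9 in the high libraries and a log2 fold change of 0.72 (SE 0.12). Htra1, a secreted serine protease, had 5.21 and 3.56 CPM in the control libraries and 8.76 and 9.68 in the high libraries, a log2 fold change of 0.94 (SE 0.16), and its low libraries, at 3.16 and 3.84, lay near the controls. Thsd4, a matrix protein, had 2.22 and 1.80 CPM in the control libraries and 3.63 and 4.55 in the high libraries, a log2 fold change of 0.76 (SE 0.13). Morc4, a CW-type zinc finger protein on the X chromosome, had 40.9 and 23.1 CPM in the control libraries and 53.3 and 79.9 in the high libraries, a log2 fold change of 1.06 (SE 0.26), and Car7, a carbonic anhydrase, had 24.2 and 11.3 CPM in the control libraries and 29.1 and 39.3 in the high libraries, a log2 fold change of 0.98 (SE 0.34). Control 2 was the lowest of the 4 libraries for each of these higher genes. On the lower side, Bcl11a, a zinc finger repressor, had 12.9 and 14.6 CPM in the control libraries and 10.1 and 8.80 in the high libraries, a log2 fold change of -0.50 (SE 0.13), and Zfp979, a zinc finger gene of a large family, had 13.9 and 18.7 CPM in the control libraries and 8.39 and 12.9 in the high libraries, a log2 fold change of -0.58 (SE 0.20). Of the genes selected by smallest p, 2 of the 8 higher and 3 of the 8 lower were predicted or unnamed, and of those selected by size 1 of 8 in each direction.

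**Figure D5:**
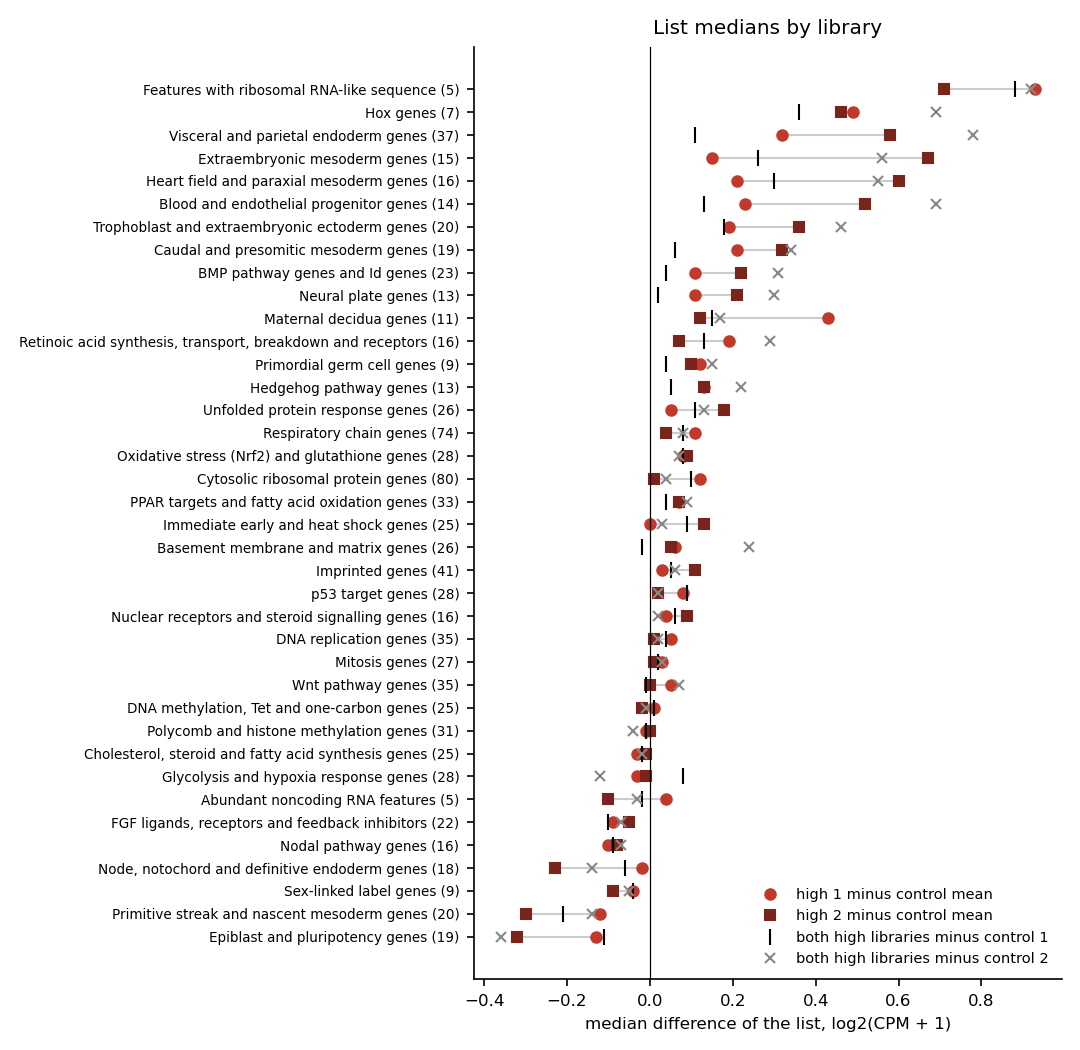
Median difference of each gene list with at least 5 measured genes on the log2(CPM + 1) scale (horizontal axis; number of genes in parentheses): high 1 and high 2 each minus the control mean, and both high libraries minus control 1 or control 2 alone. The visceral endoderm, blood and BMP lists lie lower against control 1 (0.11, 0.13 and 0.04) than against control 2 (0.78, 0.69 and 0.31), and the ribosomal RNA-like features lie between 0.71 and 0.93 in all 4 forms.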

How the data were processed

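Total RNA from E7.5 offspring of males given vehicle or 1 of 2 DEHP doses was sequenced, and 1 expression table of 6 columns was used. The values are CPM (counts per 1000000 reads), as the deposited column names state. How the authors made them is not given in the sources used here: the submitters' processing notes list TopHat, Bowtie 0.12.2, SAMtools and edgeR among their tools and the builds mm8 and mm10, without roles. The CPM values were whole multiples of 1 step per column (100% within a tolerance of 0.05 steps), so only the relative depth is known, and no test on counts was run.

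Genes with at least 1 CPM in at least 2 libraries (12987 of 12988) were tested with limma 3.58.1 (R 4.3.3) on log2(CPM + 1), with a mean-variance trend, all 3 treatments in 1 fit, 3 residual degrees of freedom, Benjamini-Hochberg adjustment and a threshold of 0.05. The fit was tested on simulated data. With 2 libraries a group, exact permutation tests of list means cannot go below p = 0.333. The rows that name no gene hold 27.9 to 29.8% of each column and were left out of tests. For 105 genes without a symbol, 16 were named from an identifier table. RefSeq (GRCm38.p6) matched 12724 symbols, 91.9% of them with a start within 2000 bases.

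Named were genes past the adjusted threshold, the 8 higher and 8 lower genes of smallest p, and the 8 of largest change with a mean of at least 10 CPM, all without overlap between groups. Up to 4 members of smallest p per list were also named, predicted genes by count only, and further members were added for their role after their values were seen. The gene lists and the members were chosen with earlier results of these data known. Some genes are not reported here, and the methylation table was not used.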

Additional observations from a re-analysis of the deposited data

Results flagged for a closer look

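The low-dose libraries, which enter the fit but are not part of the comparison of high with control, lay above both controls for 4 of the 5 features with ribosomal RNA-like sequence. Gm23935 had 128.1 and 124.6 CPM in low 1 and low 2, against 56.6 and 36.6 in the controls. Lars2 had 510.5 and 448.7 CPM, against 402 and 348. Mir6236 had 4.741 and 4.152 CPM, against 3.34 and 2.41, and Gm26917 had 13.25 and 10.37 CPM, against 8.09 and 9.47. The difference between the low and high libraries was not tested.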

How the results depend on the processing

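The number of genes past the adjusted threshold of limma was 1, and it was 0 without a trend and with columns of the same number as a replicate block, 2 with only the high and control libraries in the fit (Gm23935 and Esrrb), and 0 to 2 when 1 library was left out. Genes at unadjusted p under 0.05 numbered 252 (without control 2) to 1217 (without control 1), with 160 to 833 higher and 92 to 384 lower, and 331 were lower with quantile normalization. The cause was not tested. The mean level of the ribosomal RNA-like features differed by 1.02, by 1.30 without the 2 most abundant, and by 0.76 without Gm23935, a setting chosen after seeing the data. Of the log2 fold changes of named genes under the alternatives, 2148 kept their direction and side of the threshold and 14 changed sign. Cd68 (0.00) became -0.03 with quantile normalization and -0.01 with columns rescaled over genes. When 1 library was left out, it ranged from -0.10 to 0.10, Eif2s3y from -0.97 to 0.17, Hba-a1 from -0.40 to 0.19, Hbb-bs from -0.34 to 0.33, Kdm5d from -1.19 to 0.10, Neat1 from -0.21 to 0.04 and Uty from -1.09 to 0.02. List medians changed sign for the neural plate (filter of 10 CPM), for the Wnt, glycolysis and matrix lists (without control 2) and for the abundant noncoding RNAs (without high 2). The labels give no replicate numbers that pair the columns, and over genes the difference between the high libraries had a correlation of -0.073 with that between the controls. edgeR and DESeq2 were not run. Some named genes were low: Esrrb, Mir6236 and Rarb had under 8 CPM in all 4 libraries. With 0.1 in place of 1 added to the CPM, the log2 fold change of Esrrb was 2.47 rather than 1.84. Only the relative depth is known, and its part in the values of low genes was not tested.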
